A study of Mus musculus with 4 samples.

Results

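The genes that mark successive steps from the oligodendrocyte precursor to the myelinating oligodendrocyte, Pdgfra, Cspg4, Olig1, Olig2, Sox10, Gpr17, Bcas1, Enpp6, Tcf7l2 and Myrf, were followed through the nuclei of the mouse posterior hindbrain. The 10 genes were chosen by name as lineage progression genes among 32285 measured genes, and were read in the nuclei that the authors annotated as OPC, Oligodendrocytes/OPC or Oligodendrocytes. These 3 types held 17723 of the 39461 nuclei that the authors kept, and the 21738 nuclei of the other 11 types served as background.

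Single nuclei were profiled in 4 libraries made with the 10x Genomics 3′ chemistry from a piece of hindbrain with the area postrema and the nucleus of the solitary tract, with 2 libraries for each of the groups control and AgRP-Gq;POMC-Gi. The control mice are labelled WT and, by the methods of the study, carried both receptor alleles but neither recombinase (AgRP-IRES-Cre-/-;hM3DGqfl/-;POMC-Dre-/-;hM4DGifl/-). The AgRP-Gq;POMC-Gi mice (AgRP-IRES-Cre+/-;hM3DGqfl/-;POMC-Dre+/-;hM4DGifl/-) express the activating receptor hM3DGq in AgRP neurons and the inhibiting receptor hM4DGi in POMC neurons, by the design of the lines, and receptor levels in lineage nuclei were not analysed here. All mice were adults of 12 to 20 weeks and of both sexes, were given clozapine N-oxide (CNO, the ligand of both receptors) at 3 mg per kg, and were killed 1 h later without food. Tissue of a condition was pooled from 2 mice, and the labels do not say whether the 2 libraries of a group came from separate mice, so p-values measure only the spread between these libraries, which may be technical in part, although sex-linked genes, given below, differed between the AgRP-Gq;POMC-Gi libraries. The libraries held 9723 to 10051 kept nuclei with medians of 3211 to 3502 unique molecular identifiers (UMIs, counted molecules) per nucleus, and 168 of 39293 barcode sequences were kept in more than 1 library.

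Oligodendrocytes make the myelin of the central nervous system, and the adult brain keeps a pool of dividing precursors (OPC) from which new ones form. A precursor that leaves this pool stops responding to platelet-derived growth factor, passes through a committed, premyelinating state and then switches on the myelin programme under the control of a small set of transcription factors. The 10 genes fall along this path as receptors and surface proteins of the precursor (Pdgfra, Cspg4), transcription factors of the whole lineage (Olig1, Olig2, Sox10), genes of the committed and newly formed cell (Gpr17, Bcas1, Enpp6, Tcf7l2) and a factor that drives myelin genes (Myrf).

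All 10 are protein-coding genes, placed here by GENCODE M21 on GRCm38. Pdgfra (ENSMUSG00000029231) lies on chr5:75152292-75198215, Cspg4 (ENSMUSG00000032911) on chr9:56865033-56899870 and Enpp6 (ENSMUSG00000038173) on chr8:46986887-47096762, all on the plus strand. Olig2 (ENSMUSG00000039830, chr16:91225457-91228677) and Olig1 (ENSMUSG00000046160, chr16:91269772-91271933) are neighbours on the plus strand, with 41094 bases between the end of Olig2 and the start of Olig1. Sox10 (ENSMUSG00000033006) lies on chr15:79154908-79165240 and Bcas1 (ENSMUSG00000013523) on chr2:170346991-170427845, both on the minus strand. Tcf7l2 (ENSMUSG00000024985, chr19:55741820-55933654, plus) and Myrf (ENSMUSG00000036098, chr19:10208272-10240748, minus) share a chromosome, and Gpr17 (ENSMUSG00000052229) completes the set. Pdgfra, Olig1, Gpr17, Bcas1 and Enpp6 overlap a gene annotated on the opposite strand, and whether reads were assigned by strand is not given in the sources used here.

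Promoter windows were found for 5 of the 10 genes in the RefSeq table (GRCm38.p6), and 3 of them are shown because their genes mark the precursor, the premyelinating cell and the cell between both. Of the others, the Cspg4 window held none of the letters searched and the Olig2 window held ACAATG once, and a further Tcf7l2 window held ACAAAG once, 14 bases before its start. Each window shown is the 250 bases before a RefSeq start on the plus strand. Capitals mark matches to the letters bound by the factors in the gene set, on both strands: the E-box CANNTG of basic helix-loop-helix factors such as Olig1 and Olig2, and ACAAAG or ACAATG of SOX factors such as Sox10, which read CTTTGT and CATTGT on the other strand.
Pdgfra, chr5:75152001-75152250: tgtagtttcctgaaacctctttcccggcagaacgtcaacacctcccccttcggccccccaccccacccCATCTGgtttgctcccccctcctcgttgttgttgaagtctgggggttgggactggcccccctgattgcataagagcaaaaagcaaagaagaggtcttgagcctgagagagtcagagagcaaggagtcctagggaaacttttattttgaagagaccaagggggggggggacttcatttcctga
Enpp6, chr8:46986637-46986886: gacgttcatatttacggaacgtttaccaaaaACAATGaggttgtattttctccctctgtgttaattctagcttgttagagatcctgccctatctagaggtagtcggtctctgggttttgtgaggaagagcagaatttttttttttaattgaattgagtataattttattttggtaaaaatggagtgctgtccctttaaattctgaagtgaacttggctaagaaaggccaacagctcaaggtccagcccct
Tcf7l2, chr19:55741560-55741809: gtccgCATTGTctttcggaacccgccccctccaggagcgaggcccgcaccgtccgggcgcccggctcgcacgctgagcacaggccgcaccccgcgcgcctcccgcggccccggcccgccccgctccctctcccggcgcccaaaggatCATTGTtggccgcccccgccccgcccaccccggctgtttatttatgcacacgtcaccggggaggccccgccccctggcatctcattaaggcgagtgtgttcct
The Pdgfra window held 1 E-box, 182 bases before the start, and no SOX letters. The Enpp6 window held ACAATG once, 219 bases before the start, and the Tcf7l2 window held it 2 times on the other strand, 245 and 103 bases before the start, and neither held an E-box. Over 32851 promoter windows of this length, 66.2% held CANNTG, 16.5% held ACAAAG and 10.7% held ACAATG. The E-box is thus common in such windows and the SOX letters less so, and none of these matches describes binding.

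The annotated types were first compared with their markers. All 784 OPC nuclei formed cluster 12 (169 to 214 per library, median 3728 UMIs), in which 5 OPC markers (Pdgfra, Cspg4, Vcan, Ptprz1, Lhfpl3) were all present. The 16816 Oligodendrocytes formed 13 clusters (3637 to 4981 nuclei per library, median 2460 UMIs), with the myelin genes Mog, Mag, Mobp and Cnp present in all libraries. The 123 Oligodendrocytes/OPC nuclei were 2 clusters that differed. Cluster 136 (62 nuclei, 9 to 20 per library, median 3892 UMIs) was led by 9630013A20Rik, Ppfibp1, Ust, Tnr and Fyn, with Gpr17 and Bcas1 among its 10 leading genes.

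Cluster 138 (61 nuclei, of which 27 came from control replicate 2 and 32 from AgRP-Gq;POMC-Gi replicate 1, and none from control replicate 1) went against the label. It was led by Prg4, Fn1, Gm12153, Bnc2 and Phldb2. Gpr17, Enpp6 and Myrf had 0 UMIs in its 61 nuclei, which allows a share of nuclei with a UMI of up to 4.92% by the limit of 3 counts and 5.87% by the exact interval, and Olig2 and Bcas1 had 1 UMI each. Of the 10 genes only Tcf7l2 was found there in more than 10% of the nuclei (35 of 61). The cluster is left without a cell type name, and values between OPC and Oligodendrocytes are given below for cluster 136, with the whole type beside them where it matters.

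Levels are given as CPM, the UMIs of a gene for every 1000000 UMIs that the nuclei of a type or cluster held in a library, in the order control replicates 1 and 2, AgRP-Gq;POMC-Gi replicates 1 and 2. Types and clusters were built by the authors from expression, so levels between them are a description with no test, and levels are compared within a gene only. In these sums, fewer cells with a gene and less RNA per cell cannot be told apart, so shares of nuclei with a UMI stand beside them, with exact 95% Clopper-Pearson intervals that cover counting error only.

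Pdgfra, the receptor for platelet-derived growth factor that keeps precursors dividing, fell most of the set between OPC and Oligodendrocytes. Its level in OPC was 902, 1063, 1025 and 956 CPM. In cluster 136 it was 101, 51.3, 80.1 and 27.2 CPM. In Oligodendrocytes it was 1.33, 2.35, 2.32 and 1.72 CPM. The 3 groups of libraries did not overlap, and the mean fell from 986 ± 71.6 CPM (SD, n = 4) by 15.2-fold to cluster 136, with a 512-fold ratio between OPC and Oligodendrocytes. A UMI was found in 722 of 784 OPC nuclei (92.1%, interval 90.0% to 93.9%), in 11 of 62 nuclei of cluster 136 (17.7%, 9.20% to 29.5%) and in 0.488% of Oligodendrocytes. In neurons, which should lack it and were deeper (median 8704 UMIs), the share was 1.04%, so the share in Oligodendrocytes was at background.

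Cspg4, the NG2 proteoglycan on the surface of precursors and pericytes, had 276, 300, 358 and 278 CPM in OPC. In cluster 136 it had 216, 180, 93.4 and 9.08 CPM. In Oligodendrocytes it had 13.8, 11.5, 13.5 and 15.3 CPM. It was lower in cluster 136 than in OPC in each of the 4 libraries and spread widely there, and the lowest library, with 1 UMI, lay below all 4 libraries of Oligodendrocytes. The ratio of OPC to Oligodendrocytes was 22.4, and in Oligodendrocytes 3.37% of nuclei had a UMI against 0.622% of neurons.

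The 3 transcription factors of the whole lineage moved far less. Olig1, a basic helix-loop-helix factor, had 225, 255, 300 and 269 CPM in OPC. It had 187, 180, 147 and 90.8 CPM in cluster 136. It had 109, 118, 123 and 97.5 CPM in Oligodendrocytes. OPC were above Oligodendrocytes in every library, 2.35-fold over the means, and cluster 136 lay between them with a range that overlapped Oligodendrocytes.

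Olig2, the factor that specifies the lineage, had 137, 134, 337 and 141 CPM in OPC. It had 43.2, 154, 147 and 136 CPM in cluster 136. It had 45.7, 41.8, 116 and 33.0 CPM in Oligodendrocytes. The ratio of OPC to Oligodendrocytes was 3.17. In both large types AgRP-Gq;POMC-Gi replicate 1 stood far above the other 3 libraries, which is taken up below.

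Sox10, an HMG-box factor needed for myelin gene expression, was the most even of the set. It had 346, 334, 398 and 416 CPM in OPC. It had 504, 616, 747 and 545 CPM in cluster 136. It had 223, 228, 263 and 379 CPM in Oligodendrocytes. Cluster 136 was above both other types in each library (1.61-fold OPC and 2.21-fold Oligodendrocytes), whereas OPC and Oligodendrocytes differed 1.37-fold, with OPC higher in each of the 4 libraries and ranges that overlapped between libraries.

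**Figure D1:**
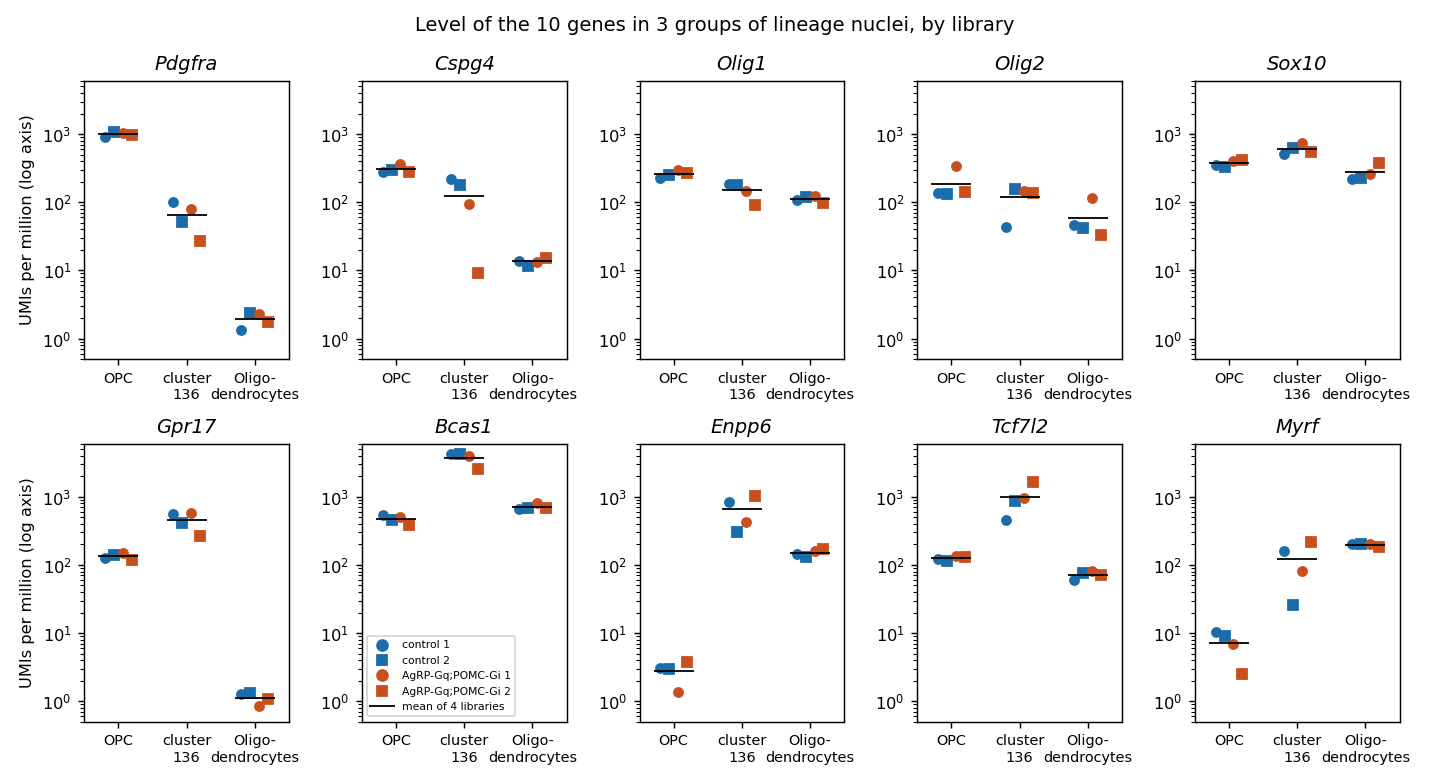
Level of the 10 genes in OPC, cluster 136 and Oligodendrocytes, in CPM on a log axis, with 1 point per library (2 control, 2 AgRP-Gq;POMC-Gi). The means of Pdgfra and Cspg4 stepped down from left to right, Gpr17, Bcas1, Enpp6 and Tcf7l2 were highest in cluster 136, and Sox10 stayed between 223 and 747 CPM throughout.

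In every library the 4 genes of the committed and newly formed cell were higher in cluster 136 than in OPC or all Oligodendrocytes together. Gpr17, a receptor of precursors about to differentiate, had 127, 142, 152 and 118 CPM in OPC. It had 562, 410, 587 and 263 CPM in cluster 136. It had 1.26, 1.34, 0.843 and 1.08 CPM in Oligodendrocytes. The mean in cluster 136 was 3.39-fold that of OPC, and the share of nuclei with a Gpr17 UMI was 72.6% in cluster 136 (45 of 62, interval 59.8% to 83.2%), 36.4% in OPC (33.0% to 39.8%) and 0.297% in Oligodendrocytes. Neurons, which were deeper, had a UMI in 0.319% of nuclei, but their level of 0.327 CPM (0.146 to 0.450) lay below the range of Oligodendrocytes, which astrocytes (1.24 CPM, 0.433 to 1.78) overlapped. These 62 nuclei held 18.7% of all Gpr17 UMIs of the series.

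Bcas1, a protein found in early myelinating cells, had 545, 459, 507 and 388 CPM in OPC. It had 4252, 4232, 3937 and 2597 CPM in cluster 136. It had 662, 681, 805 and 690 CPM in Oligodendrocytes. It was present in 62 of 62 nuclei of cluster 136 (interval 94.2% to 100%), at 7.91-fold the level of OPC and 5.29-fold that of Oligodendrocytes, and unlike Gpr17 it was kept in Oligodendrocytes, at 1.49-fold the level of OPC. The antisense gene Bcas1os2, which overlaps it, was also among the leading genes of cluster 136.

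Enpp6, a choline phosphodiesterase of newly formed oligodendrocytes, had 3.10, 2.98, 1.38 and 3.74 CPM in OPC. It had 850, 308, 427 and 1017 CPM in cluster 136. It had 143, 132, 159 and 172 CPM in Oligodendrocytes. A UMI was found in 8 of 784 OPC nuclei (1.02%, interval 0.441% to 2.00%) against 1.83% of neurons, so OPC were at background, and in 32 of 62 nuclei of cluster 136 (51.6%, 38.6% to 64.5%) and 21.7% of Oligodendrocytes. Cluster 136 was 4.29-fold above Oligodendrocytes as a whole. In control replicate 2 and AgRP-Gq;POMC-Gi replicate 1 it lay below the highest oligodendrocyte cluster (428 and 458 CPM).

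Tcf7l2, a transcription factor of Wnt signalling that acts in the same cells at the onset of differentiation, had 123, 113, 135 and 131 CPM in OPC. It had 461, 872, 961 and 1635 CPM in cluster 136. It had 60.7, 74.9, 80.8 and 71.9 CPM in Oligodendrocytes. The 3 ranges did not overlap, with cluster 136 at 7.83-fold OPC and 13.6-fold Oligodendrocytes, and OPC at 1.74-fold Oligodendrocytes.

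Myrf, the membrane-bound factor that turns on myelin genes, had 10.3, 8.94, 6.89 and 2.49 CPM in OPC. It had 159, 25.6, 80.1 and 218 CPM in cluster 136. It had 201, 201, 206 and 181 CPM in Oligodendrocytes. Its share of OPC nuclei (2.81%) was at the 2.94% of neurons, which were deeper, and by level neurons had 3.18 CPM (2.38 to 3.98), below 3 of the 4 OPC libraries. It was found in 37.1% of cluster 136 (25.2% to 50.3%) and in 40.1% of Oligodendrocytes (39.3% to 40.8%), and cluster 136 was below Oligodendrocytes in 3 of 4 libraries.

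Other lineage genes, taken from lists, are set beside the members over the same 3 steps. Of the precursor genes, Vcan had 2125, 955 and 3.28 CPM in OPC, cluster 136 and Oligodendrocytes (means of 4 libraries), and Lhfpl3 had 6087, 1532 and 28.1 CPM, whereas Tnr was higher in cluster 136 (4076, 7391 and 7.18 CPM). Of the genes of committed cells, Bmp4, a signal made by committed precursors, had 0.861, 189 and 0.448 CPM, and Fyn, a kinase of early myelination, had 263, 3068 and 98.6 CPM. The myelin gene Mog (15.6, 152 and 1105 CPM) was higher at each of the 3 steps, with cluster 136 between the outer types. Sox5 and Sox6, which hold back differentiation, had 1215 and 1528 CPM in OPC, 558 and 2076 CPM in cluster 136 and 5.01 and 6.62 CPM in Oligodendrocytes. The 7 genes of that list summed to 2844 ± 178, 2661 ± 578 and 30.4 ± 6.30 CPM (SD, n = 4) at the 3 steps. Of 6 cell division genes, Top2a, Cdk1, Mcm2 and Mcm6 had no UMI in cluster 136, and the 6 genes summed to 29.6 ± 1.05 CPM in OPC, 19.8 ± 19.2 CPM in cluster 136 and 28.0 ± 3.76 CPM in Oligodendrocytes (SD, n = 4).

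Within nuclei, the members overlapped in part. In cluster 136 a nucleus had UMIs of a median of 6 of the 10 genes. Enpp6 was found in 1 of the 11 nuclei with a Pdgfra UMI (9.09%) and in 31 of the 51 without (60.8%), with medians of 2967 and 4717 UMIs, so the nuclei with Pdgfra were also shallower. Tcf7l2 was found in 90.6% of the nuclei with Enpp6 and in 30.0% of those without, with medians of 5623 and 3014 UMIs. After each nucleus was thinned to 800 UMIs, which lowers detection in every nucleus, these shares were 45.0% of 20 nuclei and 26.2% of 42, and the part of depth in the gap was not tested. Myrf was found in 56.3% of the nuclei with Enpp6 and 16.7% of those without, but in 10.0% and 16.7% after thinning, and no order is read from it. In OPC, Bcas1 was found in 77.9% of the nuclei with a Gpr17 UMI and in 65.1% of those without (34.1% and 26.6% after thinning), and Tcf7l2 in 40.4% and 32.7% (12.1% and 9.24%). In cluster 136, Tcf7l2 was found in 64.4% of the nuclei with Gpr17 and 52.9% of those without, but in 15.4% and 44.4% after thinning. Bcas1, found in every nucleus there, was in 92.3% and 72.2% after thinning.

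The members differed in how much of their UMIs lay outside the lineage types, with no background taken off. Of all UMIs of a gene, the types outside the lineage held 63.7% for Tcf7l2, 30.1% for Cspg4, 29.5% for Pdgfra, 16.0% for Olig1, 14.8% for Olig2, 11.6% for Gpr17, 5.57% for Enpp6, 5.55% for Myrf, 3.55% for Bcas1 and 2.66% for Sox10. Pdgfra had 510 ± 323 CPM (SD, n = 4) in fibroblasts, with a range of 301 to 990 CPM that overlapped OPC. Cspg4 had 378 ± 86.4 CPM in mural cells, at 322 to 507 CPM, again overlapping OPC. Tcf7l2 had 360 ± 81.1 CPM in fibroblasts, 315 ± 34.7 CPM in the Tmem119 immune type and 259 ± 19.7 CPM in astrocytes, ranges above the highest OPC library (135 CPM), and only 1.99 ± 0.625 CPM in neurons. Olig1 and Olig2 had 26.9 ± 2.23 and 22.4 ± 4.09 CPM in astrocytes, where they were found in 9.09% and 7.31% of nuclei against 4.06% and 1.11% of neurons. The Olig1 level of astrocytes overlapped that of endothelial cells (30.6 ± 4.67 CPM) and lay near that of mural cells (21.7 ± 1.48 CPM), whereas for Olig2 endothelial and mural cells had 7.58 ± 3.08 and 8.05 ± 7.32 CPM.

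**Figure D2:**
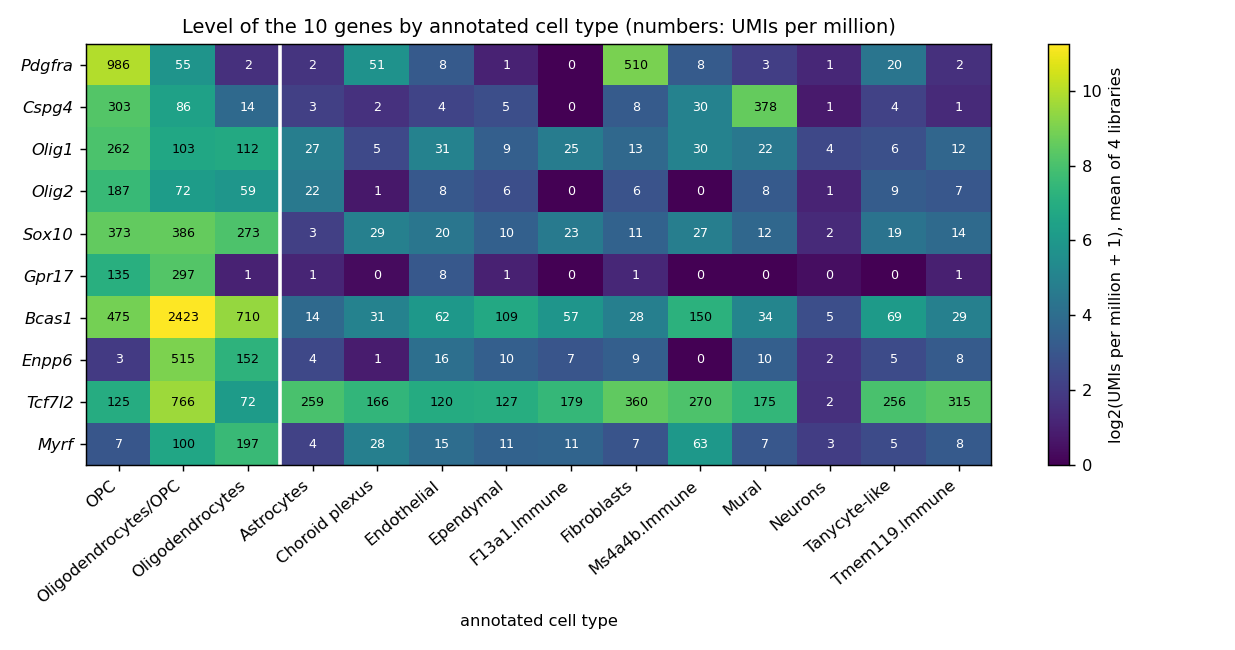
Mean level of the 10 genes in the 14 annotated cell types, as a heat map of CPM over 4 libraries on a log colour scale. Sox10, Bcas1, Enpp6 and Myrf had 5.57% or less of their UMIs outside the 3 lineage types, whereas Pdgfra was shared with fibroblasts (510 CPM), Cspg4 with mural cells (378 CPM) and Tcf7l2 with most types other than neurons (1.99 CPM).

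By level, OPC ranked first of the 14 types for Pdgfra, Olig1 and Olig2, mural cells for Cspg4, Oligodendrocytes for Myrf and Oligodendrocytes/OPC for the other 5 genes. The ranges of the first and second types in this order overlapped for Pdgfra (OPC and fibroblasts) and Cspg4 (mural cells and OPC). They also overlapped for Sox10 and Gpr17 (Oligodendrocytes/OPC and OPC) and for Enpp6 (Oligodendrocytes/OPC and Oligodendrocytes). So did those for Myrf (Oligodendrocytes and Oligodendrocytes/OPC) and Tcf7l2 (Oligodendrocytes/OPC and fibroblasts). Overlapping ranges do not show that such types were alike within a library. The first type was clear of the second for Olig1, Olig2 and Bcas1. These ranges are of the whole Oligodendrocytes/OPC type with cluster 138 in it, and cluster 136 alone was clear of OPC for Sox10 and Gpr17 and of Oligodendrocytes for Enpp6, but overlapped OPC for Olig2.

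The 13 oligodendrocyte clusters were far from uniform in Enpp6, which ranged from 7.22 CPM in cluster 14 to 429 CPM in cluster 26, 59.4-fold. Clusters 2, 4, 6 and 26 stood apart as the 4 highest, and the other 9 as the rest, a split made from the Enpp6 values themselves. These 4 clusters held 5195 nuclei with 340 ± 36.9 CPM (SD, n = 4 libraries) and a UMI in 57.5% of nuclei, and the other 9 held 11621 nuclei with 31.9 ± 6.34 CPM and a UMI in 5.64%. Their median depths were 3151 and 2218 UMIs, and after thinning the shares were 20.6% and 1.89%. The 4 clusters made up 32.2%, 30.2%, 29.8% and 31.2% of Oligodendrocytes in the 4 libraries.

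The other members went the other way across these clusters or did not move. Olig1 had 71.7 ± 6.77 CPM in the 4 clusters and 137 ± 13.7 CPM in the other 9. Olig2 had 35.0 ± 23.3 and 74.6 ± 47.7 CPM, with the wide SD due to 1 library. Bcas1 had 555 ± 47.3 and 808 ± 74.0 CPM, Tcf7l2 52.5 ± 6.41 and 84.5 ± 9.42 CPM, and Myrf 173 ± 8.30 and 213 ± 13.6 CPM. Sox10 had 254 ± 61.8 and 286 ± 80.4 CPM, and Cspg4 13.9 ± 1.38 and 13.3 ± 1.75 CPM. Gpr17, which was high with Enpp6 in cluster 136, had a UMI in 0.212% and 0.336% of these nuclei.

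Of 8 genes of mature subtypes, 5 (Klk6, Hopx, Apod, Il33 and Ptgds) split by the same line in every library and 3 (Car2, Anxa5 and Grm3) overlapped in 3 or 4 libraries. Klk6, a protease of one mature subtype, had 100 CPM in the 4 clusters and 10.8 CPM in the other 9, Hopx had 59.6 and 11.8 CPM and Apod, a lipocalin, 1489 and 598 CPM. Il33 went the other way with 75.1 and 812 CPM, as did Ptgds, a prostaglandin D synthase (522 and 3931 CPM), and, from the myelin list, Opalin, a myelin membrane protein (34.8 and 296 CPM). Car2, a carbonic anhydrase, had 788 and 915 CPM. Over the 13 clusters, which share their 4 libraries and differ in depth, Spearman's rho with Enpp6 was 0.93 for Klk6, 0.92 for Apod, 0.86 for Hopx, -0.97 for Opalin, -0.90 for Ptgds, -0.87 for Olig1 and -0.84 for Olig2, and that of Enpp6 with the median UMIs per nucleus was 0.85, which is given as a description.

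**Figure D3:**
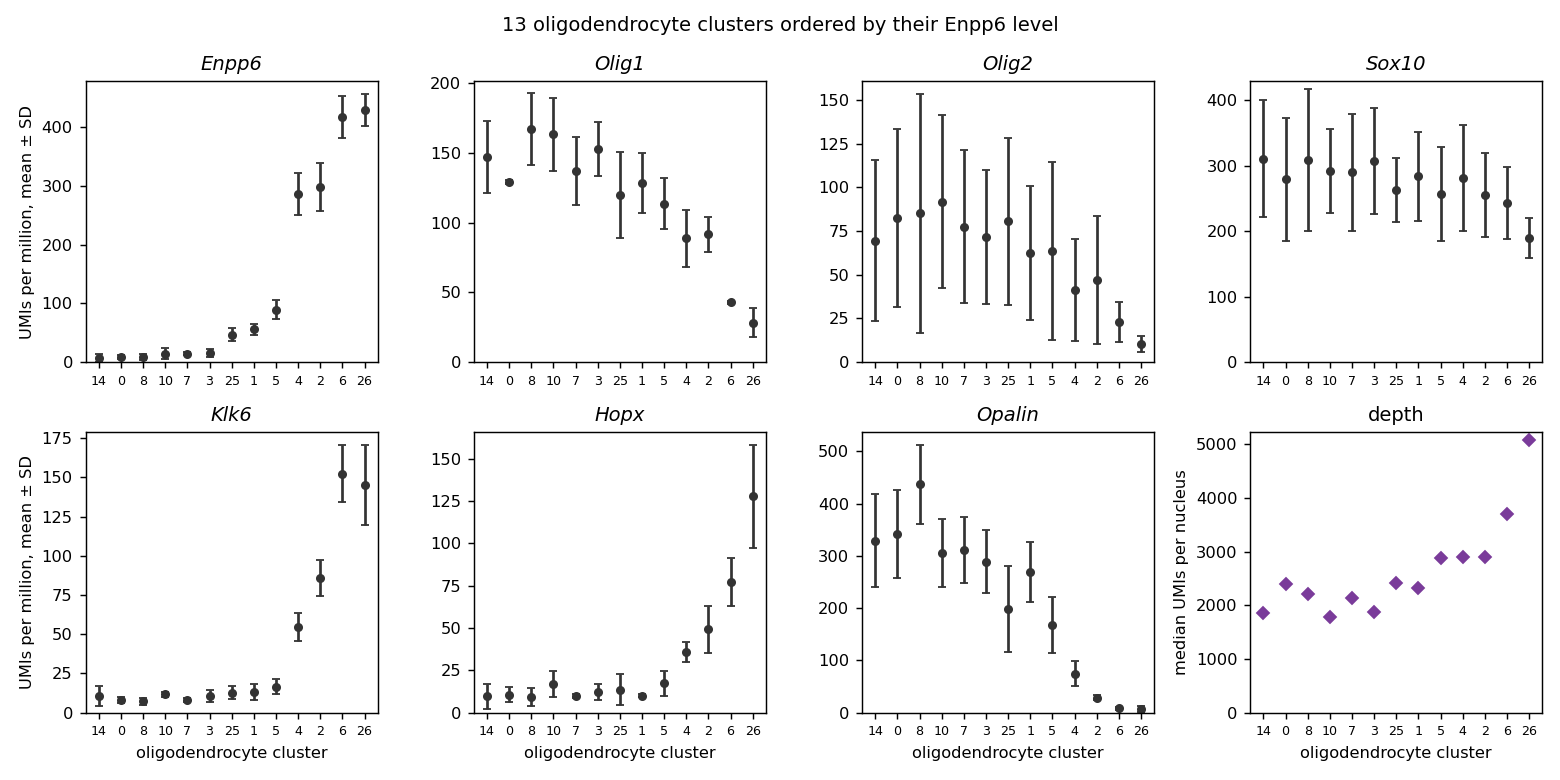
Levels in the 13 oligodendrocyte clusters, ordered by Enpp6, in CPM (mean ± SD over 4 libraries), for Enpp6, Olig1, Olig2, Sox10, Klk6, Hopx and Opalin, with the median UMIs per nucleus. Enpp6, Klk6 and Hopx were high in clusters 2, 4, 6 and 26, Opalin was low there, and these clusters had more UMIs per nucleus.

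Across all 184 clusters, the gene whose level was most like that of a member among 15131 genes with at least 500 UMIs was found by Pearson's r of log2(CPM + 1). Clusters share libraries and depth, and r is a description. It was Gjc3, a gap junction protein of glia, for Sox10 (r = 0.90) and Bcas1 (0.90), Arhgap23 for Myrf (0.84), 1700047M11Rik for Olig2 (0.80), Neu4 for Gpr17 (0.67), Cryab for Cspg4 (0.71), Bmp7 for Pdgfra (0.63) and Apoe for Tcf7l2 (0.88). For Enpp6 it was Gm45600 (0.77), which overlaps it on the opposite strand, followed by Cldn14 (0.75). Between members, r was highest for Sox10 with Bcas1 (0.88), Sox10 with Myrf (0.81) and Bcas1 with Myrf (0.81), and lowest for Pdgfra with Myrf (0.11).

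AgRP-Gq;POMC-Gi replicate 1 stood apart for Olig2. Its 337 CPM in OPC were 2.40-fold the highest of the other 3 libraries, and its 116 CPM in Oligodendrocytes 2.55-fold. Of 5687 genes with a mean of 20 CPM or more in both types, Olig2 ranked first by this ratio and was the only one over 2-fold, ahead of H3f3b, a histone variant gene (208 against 86.8 to 124 CPM in OPC, 253 against 90.9 to 128 CPM in Oligodendrocytes), and Jun. Olig2 was highest in this library in 13 of 13 oligodendrocyte clusters but not in cluster 136, nor was Olig1, its neighbour on the chromosome, set apart (300 against 225 to 269 CPM in OPC).

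The same library had more Malat1, a nuclear noncoding RNA (85413 against 51247 to 59641 CPM in OPC, 125744 against 84817 to 93107 CPM in Oligodendrocytes), and with Malat1 left out of the totals the Olig2 ratios were 2.47 and 2.66. After thinning to 800 UMIs, Olig2 was found in 27.1% of its OPC nuclei against 9.90% to 14.6%, and in 9.31% of its Oligodendrocytes against 2.53% to 3.70%. The 8 early response and stress genes (Fos, Jun, Junb, Egr1, Ier2, Dusp1, Hspa1a, Hspa1b) summed in OPC to 222 CPM in this library against 52.2 to 71.0 CPM. In Oligodendrocytes they summed to 59.7 against 41.6 to 55.1 CPM and in astrocytes to 152 against 39.6 to 54.5 CPM, and their part in the Olig2 value was not tested. In astrocytes Olig2 was not highest there, with 1.82% of thinned nuclei against 1.09% to 2.52%.

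**Figure D4:**
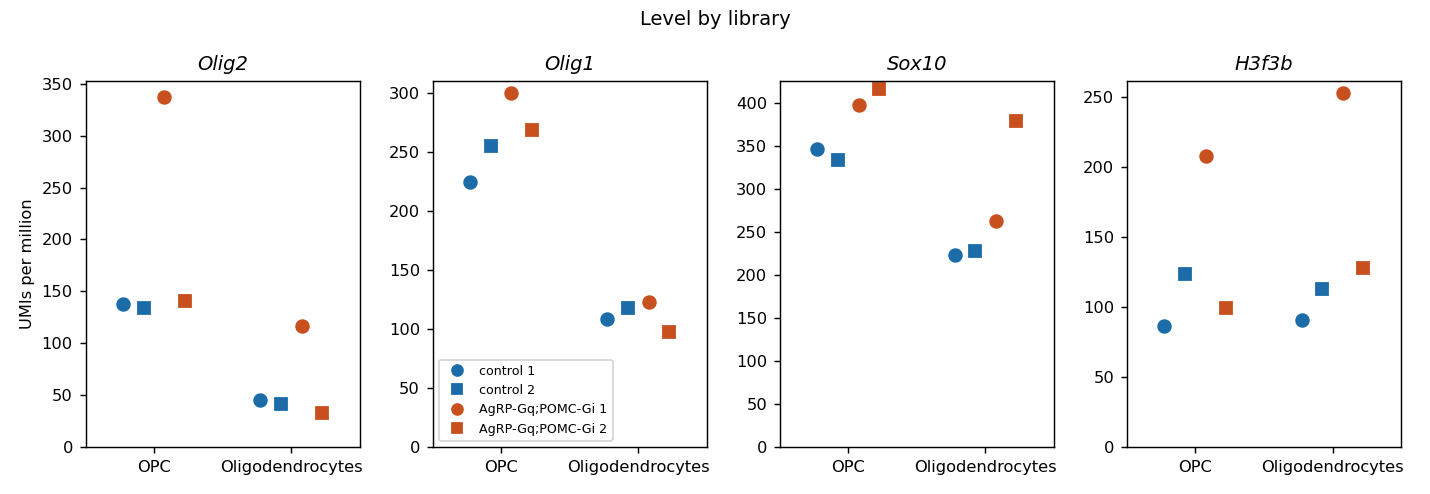
Level of Olig2, Olig1, Sox10 and H3f3b in each of the 4 libraries, in CPM, in OPC and in Oligodendrocytes. Olig2 and H3f3b stood out in AgRP-Gq;POMC-Gi replicate 1 (337 and 208 CPM in OPC), Olig1 did not, and Sox10 was highest in AgRP-Gq;POMC-Gi replicate 2 (379 CPM in Oligodendrocytes).

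Sox10 was highest in AgRP-Gq;POMC-Gi replicate 2 in both large types and in 13 of 13 oligodendrocyte clusters, at 379 against 223 to 263 CPM in Oligodendrocytes. The 3 genes that led the other libraries most in replicate 2 were the Y-linked Uty, Eif2s3y and Kdm5d, and Xist, the RNA of the inactive X chromosome, had 725, 614, 1306 and 46.1 CPM in OPC over the 4 libraries. The sex of the mice therefore differed between libraries, and its part in the Olig2 and Sox10 values was not tested.

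The groups were compared to ask whether activating AgRP and inhibiting POMC neurons for 1 h went with a change of these genes in the lineage. No member passed an adjusted p under 0.05 in the quasi-likelihood test of edgeR with Benjamini-Hochberg adjustment in OPC, Oligodendrocytes/OPC or Oligodendrocytes, the 3 types tested. In OPC, 8 members passed the filter of a UMI in at least 5% of nuclei (Enpp6 and Myrf did not), 0 of 8 were called, against 4 of 9016 genes (0.0444%), all lower in AgRP-Gq;POMC-Gi. DESeq2 called 0 members as well. At an unadjusted p under 0.05 there were 2 members and 571 genes.

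Olig2 was higher by 0.86 (log2, SE 0.27, edgeR adjusted p = 0.479) and Sox10 by 0.30 (SE 0.15, adjusted p = 0.786) in OPC of AgRP-Gq;POMC-Gi mice. The Olig2 difference rested on replicate 1, without which it was 0.04. The 8 members had a median difference of 0.20 with 7 above 0, against a median of 0.01 over all genes, and without that replicate a median of -0.0061 with 4 of 8 above 0. Sox10, Olig2, Olig1 and Tcf7l2 were higher in both AgRP-Gq;POMC-Gi libraries than in both control libraries, 4 of 8 members against 14.5% of all genes. Lower without overlap were 0 of 8 members against 20.3% of all genes. Pdgfra, Gpr17 and Cspg4 differed by 0.06, 0.06 and 0.20 with edgeR adjusted p of 0.985, 0.995 and 0.939. The shares of OPC nuclei with a UMI overlapped between groups for Sox10 (76.7% and 72.2% in control, 67.3% and 75.4% in AgRP-Gq;POMC-Gi) and Olig2 (44.1% and 37.3%, 62.6% and 41.2%). Those of Olig1 did not overlap and were lower in AgRP-Gq;POMC-Gi (62.9% and 63.3%, 59.8% and 62.3%), against the direction of its level. After thinning to 800 UMIs those of Sox10 still overlapped (27.7% and 22.5%, 23.8% and 34.2%). Those of Olig1 (16.3% and 21.3%, 24.3% and 24.1%) and Olig2 did not, and both were then higher in AgRP-Gq;POMC-Gi.

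In Oligodendrocytes 7 members passed the filter (Pdgfra, Cspg4 and Gpr17 did not), and edgeR called 0 of 7, with 0 of 6646 genes called (0.0%). DESeq2 called 119 of the 6646 genes and 1 member, Sox10 (adjusted p = 0.0245). At an unadjusted p under 0.05 there were 2 members and 629 genes. Sox10 was higher by 0.55 (SE 0.13, edgeR adjusted p = 0.222) and Enpp6 by 0.33 (SE 0.09, edgeR adjusted p = 0.286). Both, with Bcas1, were higher in both AgRP-Gq;POMC-Gi libraries than in both control libraries, 3 of 7 members against 14.1% of all genes. Lower without overlap were 0 of 7 members against 23.3% of all genes. Without AgRP-Gq;POMC-Gi replicate 1 the Bcas1 difference was 0.014, against 0.22 with all libraries. The 4 astrocyte markers, all present in these nuclei, summed to 155 and 156 CPM in control and 180 and 191 CPM in AgRP-Gq;POMC-Gi. Only 2 of them passed the filter, and they went opposite ways. Slc1a3, a glutamate transporter, was higher by 0.58 (edgeR adjusted p = 0.150), and Slc1a2 differed by -0.28 (edgeR adjusted p = 0.718). The part of these markers in the member differences was not tested. The share of Oligodendrocytes with a Sox10 UMI overlapped between groups (45.9% and 44.7%, 43.6% and 59.1%), and after thinning it was 17.2% and 17.6% against 19.2% and 27.1%. Olig2 differed by 0.87 with an SE of 0.54 (adjusted p = 0.671), and by -0.44 without AgRP-Gq;POMC-Gi replicate 1. Olig1 and Myrf differed by 0.02 and 0.01, and the first of these was -0.047 without TMM factors, and that of Myrf -0.060.

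In the 13 clusters of Oligodendrocytes, 86 pairs of member and cluster were tested and 2 were called, against 336 of 85525 tests over all genes (0.393%). Both were Sox10, in cluster 4 (0.69, SE 0.13, edgeR adjusted p = 0.0341, with 0.466% of genes called there) and in cluster 5 (0.65, SE 0.15, adjusted p = 0.0353, 0.642%). Its difference was above 0 in 13 of 13 clusters, from 0.19 to 0.70 with a median of 0.56. For Sox10 the AgRP-Gq;POMC-Gi libraries lay above both control libraries in 10 of 13, against 14.2% of gene and cluster pairs. Myrf was lower without overlap in clusters 0, 4, 5, 10 and 14 and higher in cluster 2. Olig1 was lower without overlap in clusters 2, 10 and 25 and higher in cluster 14. In these clusters 20.8% to 24.9% of genes were lower without overlap. The clusters share their libraries and are not independent, and with control replicate 2 left out 0 pairs were called.

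In cluster 136 and the whole Oligodendrocytes/OPC type the test could see few changes. Of simulated 4-fold changes in genes drawn at random, 2.5% and 0.5% were recovered there, against 94.5% in OPC and 100% in Oligodendrocytes. In cluster 136, 0 of 10 members were called by edgeR, against 4 of 8685 genes (0.0461%), and 2 members and 410 genes had an unadjusted p under 0.05. Cspg4 was lower there in AgRP-Gq;POMC-Gi by a log2 value of -1.90 (SE 0.70, adjusted p = 0.703) and Tcf7l2 higher by 1.25 (SE 0.52, adjusted p = 0.954), on 9 to 20 nuclei per library. Without overlap of the groups, 3 of 10 members were lower (Bcas1, Cspg4 and Olig1, against 19.2% of all genes) and 1 higher (Tcf7l2, against 13.6%). In the whole type 0 of 10 members and 0 of 8930 genes were called (0.0%), with 1 member, Cspg4, and 120 genes at an unadjusted p under 0.05, and DESeq2 called 0.

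**Figure D5:**
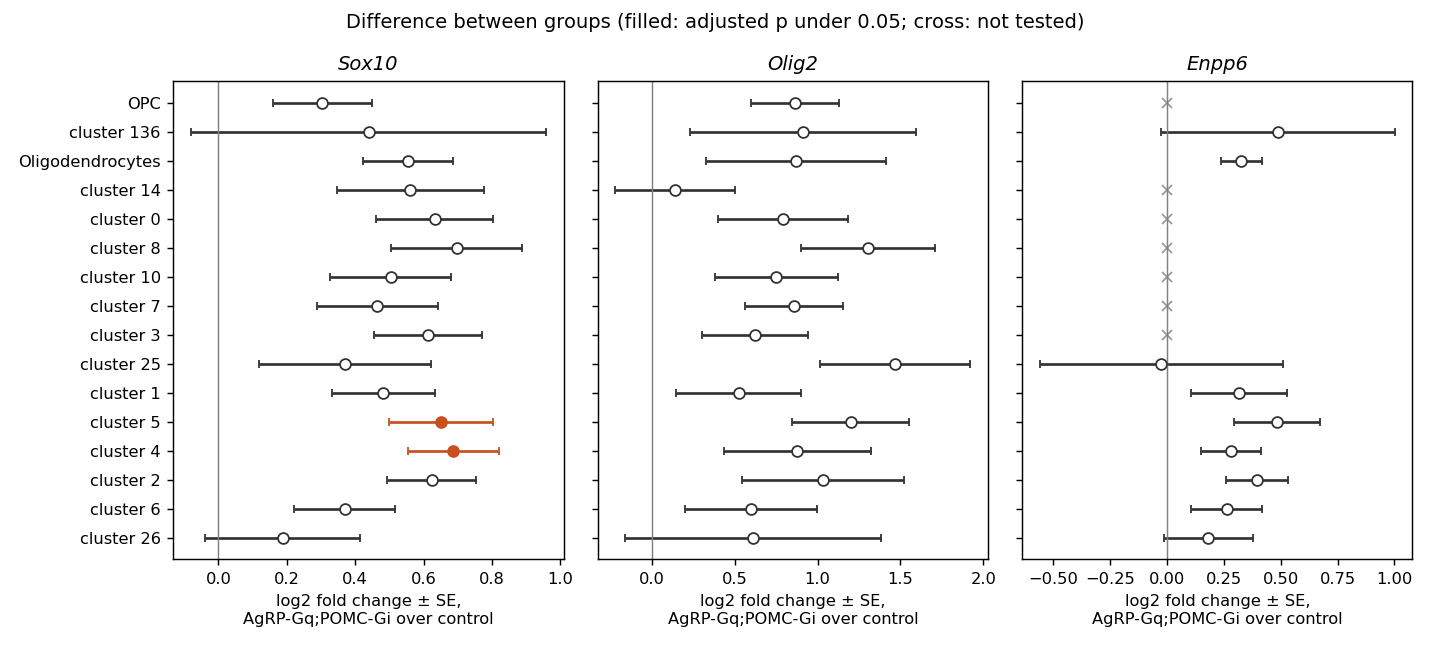
Difference of Sox10, Olig2 and Enpp6 between AgRP-Gq;POMC-Gi and control (log2 fold change ± SE from edgeR, 2 libraries per group) in OPC, cluster 136, Oligodendrocytes and the 13 oligodendrocyte clusters, filled where the adjusted p was under 0.05. Sox10 lay above 0 in every cluster and was filled in clusters 4 and 5, Olig2 had wide errors, and Enpp6 was tested in 7 of the 13 clusters.

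The other lineage lists had no called gene in OPC, Oligodendrocytes or cluster 136 by edgeR. In OPC, 11 of 11 precursor genes were tested and 0 called (median difference 0.08, 9 above 0, Ptprz1 at an unadjusted p under 0.05). Of 7 committed-cell genes 0 were called (median 0.04, Sox4 at an unadjusted p under 0.05), and of 7 myelin genes 0 (median -0.40, 1 at an unadjusted p under 0.05). Of 6 genes that hold back differentiation, 0 were called, with a median of 0.77, 6 above 0 and Id2, Hes1 and Hes5 at an unadjusted p under 0.05 (lowest adjusted p = 0.326). In Oligodendrocytes 0 of 9 myelin genes were called (median 0.02, Opalin at an unadjusted p under 0.05) and 0 of 8 mature subtype genes (median -0.01, Car2 and Hopx). Of 4 committed-cell genes tested there 0 were called (median -0.10), and of 5 other transcription factors 0 (median 0.26). Nkx2-2, a homeobox factor on both of these lists, was higher by 0.97 with an edgeR adjusted p of 0.147, and in OPC 5 of 5 mature subtype genes lay below 0 (median -0.43, 0 called, Ptgds and Apod at an unadjusted p under 0.05).

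The share of precursors in the lineage was also set beside the groups. Of lineage nuclei, OPC made up 3.89% and 3.75% in control replicates 1 and 2, against 5.14% and 5.16% for AgRP-Gq;POMC-Gi. The groups did not overlap, but the exact two-sided permutation test with 2 libraries a group cannot go below p = 0.333, the value it gave. Of all kept nuclei, OPC made up 2.08% and 1.68% against 2.20% and 2.00% (exact permutation p = 0.667), and Oligodendrocytes 51.2% and 42.8% against 40.1% and 36.5% (p = 0.333). Cluster 136 made up 0.308% and 0.200% against 0.480% and 0.441% of lineage nuclei (exact permutation p = 0.333), on 9 to 20 nuclei per library.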

How the data were processed

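Nuclei of 4 hindbrain libraries were profiled, and the authors counted UMIs per gene and nucleus with Cell Ranger 7.0.0 on GRCm38 (mm10), with Seurat 4.3.0 among the tools named in their processing notes. The deposited values are raw counts. The authors removed nuclei under 800 UMIs and, by further limits, those with few genes, much mitochondrial RNA or called as doublets, and their table gave the kept nuclei, clusters and cell types, which were used as deposited. Whether intronic reads were counted and by strand is not given in the sources used here.

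Counts were summed per library and type or cluster. CPM are these sums over all UMIs of the same nuclei. Groups were tested with edgeR 4.0.16 (TMM factors, quasi-likelihood test, Benjamini-Hochberg adjustment over all genes found in 5% of the nuclei or more, 5 nuclei or more per library) in R 4.3.3, with the library as replicate. Alternatives were no TMM factors, DESeq2 1.42.0, no filter, filterByExpr, the replicate number as a block, at least 10 nuclei per library and each library left out. The authors' mixed model, nebula, was not used here. Shares were also computed after thinning each nucleus to 800 UMIs. Python 3.11.15, numpy 2.4.6, pandas 2.3.3 and scipy 1.17.1 were used.

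The 10 genes were all named, and other genes only from written lists or where a result turned on them, with 1 gene not reported here. The members and lists were chosen with earlier results of these data known. The test was tried on simulated data with 200 changed genes drawn at random. Of 2-fold changes, 47% were recovered in OPC (9016 genes), 97% in Oligodendrocytes (6646) and 0% in Oligodendrocytes/OPC (8930) and in cluster 136 (8685). These shares are over all genes and can be lower for a member that spread widely, such as Olig2 in Oligodendrocytes (SE 0.54).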

Additional observations from a re-analysis of the deposited data

How the results depend on the processing

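Of the log2 differences of a member between groups, 207 under an alternative kept direction and side of the threshold, 10 passed it newly and 25 turned direction, and of the ratios between types 113 moved by less than the spread and 7 by more. In OPC, 0 members were called, but 1 (Olig2, 0.87) with no filter on genes, and 0 to 1 with a library left out (Olig2, 1.42, without AgRP-Gq;POMC-Gi replicate 2). In Oligodendrocytes 0 were called, but 1 by DESeq2, 2 with no filter, and 0 to 3 with a library left out, namely 1 (Sox10) without AgRP-Gq;POMC-Gi replicate 1 and 3 (Olig2, Sox10, Bcas1) without replicate 2. Over all genes of this type edgeR called 0, DESeq2 119, no filter 358, filterByExpr 26, and leaving out those replicates 113 and 507; in OPC the counts were 4, 2, 36 and 4, and 64 and 105. Of the pairs of member and cluster, 2 were called, and 0 to 18 with a library left out (18 and 10 without AgRP-Gq;POMC-Gi replicates 2 and 1, 0 without control replicate 2). The cause was not tested.

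With the replicate number as a block, Sox10 was called in Oligodendrocytes (1 member, 226 genes, adjusted p = 0.0173), 9 pairs were called, Myrf in Oligodendrocytes turned to -0.0030, and Gpr17 in Oligodendrocytes/OPC to 0.00052. Deviations of same-numbered libraries correlated at 0.07 in OPC, 0.34 in Oligodendrocytes, -0.36 in Oligodendrocytes/OPC and -0.03 in cluster 136. The labels tie a number to no shared animal, batch or day. Whether same-numbered libraries share more than a number is therefore not known, and the block is given only as an alternative. The block with crossed numbers, added after seeing the data, called 1 gene and 0 members in Oligodendrocytes/OPC.

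Other values of opposite sign were, in Oligodendrocytes, Olig1 (-0.047) and Myrf (-0.060) without TMM factors and Myrf (-0.0036) with no filter. With a library left out, the differences in OPC ranged from -0.052 to 0.18 for Pdgfra, -0.059 to 0.42 for Cspg4, -0.19 to 0.29 for Gpr17 and -0.39 to 0.11 for Bcas1. In Oligodendrocytes they ranged from -0.24 to 0.26 for Olig1, -0.44 to 1.55 for Olig2 and -0.18 to 0.18 for Myrf. In Oligodendrocytes/OPC they ranged from -1.02 to 0.49 for Pdgfra, -1.12 to 0.14 for Olig1, -0.11 to 1.07 for Sox10, -1.0 to 1.02 for Gpr17, -0.89 to 0.70 for Bcas1, -1.20 to 2.63 for Enpp6 and -0.96 to 3.78 for Myrf. A lone library left in a group was assumed to vary like the other group. Values on few nuclei (cluster 136, 9 to 20 per library) are limited by the number of nuclei.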
